A study of Mus musculus with 8 samples.

Results

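Fatty acid synthesis builds palmitate from cytosolic acetyl-CoA, and 10 genes of this pathway were followed here by symbol among 24532 genes. Slc25a1, Acly and Acss2 supply acetyl-CoA, Me1 supplies NADPH, Acaca and Acacb make malonyl-CoA, Fasn makes the fatty acid, and Thrsp is a lipogenic nuclear and cytosolic protein that assists the pathway. Srebf1 (SREBP-1) and Mlxipl (ChREBP) encode the transcription factors that switch these genes on, SREBP-1 downstream of insulin and ChREBP downstream of sugar. Both are also controlled after transcription, SREBP-1 by cleavage from its membrane precursor and ChREBP by nuclear entry, so their mRNA levels do not give their activity. Liver and fat are the main sites of the pathway in mice.

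The samples were liver and subcutaneous fat of male C57BL/6 mice aged 24 weeks after 19 weeks of high-fat diet. WT mice were compared with mice lacking Mkrn1 (KO), an E3 ubiquitin ligase, with 2 libraries for each genotype and tissue and 8 libraries in all. The study's methods describe the KO as a null line, backcrossed to C57BL/6 and compared with littermates, and all groups had the high-fat diet. No chow-fed group was analysed here. Mkrn1 itself was 9.42 and 10.1 FPKM in WT liver against 2.86 and 2.21 in KO liver, and 16.8 and 19.3 against 4.58 and 2.90 FPKM in fat, with both KO values below both WT values in each tissue. FPKM is the number of fragments scaled to transcript length and to library size, and it allows levels to be compared between genes.

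One library stood apart. The 16 skeletal muscle markers made up 20.9% of the summed FPKM in KO fat replicate 2 and 0.00847% to 0.0657% in the other fat libraries, and 14 of the 16 were above both WT libraries. In that library 9 of 10 adipocyte markers, 7 of 7 macrophage markers and 5 of 5 endothelial markers were below both WT libraries. Of 6 brown fat markers 4 were above both WT libraries and 2 below, with a sum of 558 FPKM against 67.8 and 86.8 in WT fat. Of 10 hepatocyte markers 9 were above and 1 below, though their sum was 946 FPKM against 1306 and 1370 in WT fat. Of all genes tested in fat, 36.1% had both KO libraries below both WT libraries. The share for that library alone was not computed. Its aligned bases, 5.72 Gb, were the fewest of the 8 libraries, which reached 9.24 Gb. Every fat result below is therefore given library by library. The labelled tissues held their markers: hepatocyte markers summed to 61163 to 74214 FPKM in liver, and adipocyte markers to 23912 to 49319 FPKM in fat. The 10 adipocyte markers summed to 69.5 to 235 FPKM in liver, mostly from Cidec, Fabp4, Plin4 and Pnpla2, which liver also expresses, while Adipoq was at 0.148 to 0.225 FPKM and Plin1 at 0.0323 to 0.111 FPKM there.

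Both start forms of Srebf1 matter for reading its level. SREBP-1a and SREBP-1c are made from the same gene with different first exons, and SREBP-1c is the form known to predominate in liver and fat. The coding starts below are from GENCODE M21 transcripts on chromosome 11 (mm10, minus strand), with the bases of the first exon in capitals and the first bases of the shared second exon, chr11:60206838-60207257, in lower case. SREBP-1a has its first exon at chr11:60220453-60220604, overlapping the first exon in the authors' annotation, and SREBP-1c at chr11:60210336-60210465.
SREBP-1a: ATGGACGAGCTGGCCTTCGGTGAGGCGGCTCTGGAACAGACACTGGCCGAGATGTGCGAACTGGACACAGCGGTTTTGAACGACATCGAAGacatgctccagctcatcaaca
SREBP-1c: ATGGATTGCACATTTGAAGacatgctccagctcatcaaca
Exon 1 contributes 91 coding bases to SREBP-1a and 19 to SREBP-1c. Both deposited Srebf1 transcripts, NM_011480 and NM_001313979, use the SREBP-1a exon, and the level of the SREBP-1c exon was not analysed here. Coverage of the first exon, on the scale of FPKM, was 8.49 and 6.18 in WT liver, 6.11 and 5.03 in KO liver, 9.81 and 6.50 in WT fat, and 3.84 and 5.27 in KO fat. Coverage of the shared second exon was 120 and 78.1, 65.5 and 64.6, 77.8 and 62.4, and 44.9 and 42.3 in the same order. The first exon thus had 7.10% to 12.6% of the coverage of the second over the 8 libraries, against a median of 48.2% to 55.7% over genes with 1 transcript. Between 3.34% and 6.16% of those genes had a lower value, and among the members Fasn was lower still, at 6.20% to 6.92%. A low first exon alone therefore does not separate Srebf1 from other members. The Srebf1 levels below are the deposited FPKM over all annotated exons, most of which both forms share.

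Mlxipl, in contrast, had 1 deposited transcript, NM_021455, whose first exon had 58.1% to 78.5% of the coverage of the second. A second first exon in GENCODE, chr5:135089890-135090060, lies upstream and belongs to the start form known as ChREBP-beta. Its level was not analysed here.

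**Figure D1:**
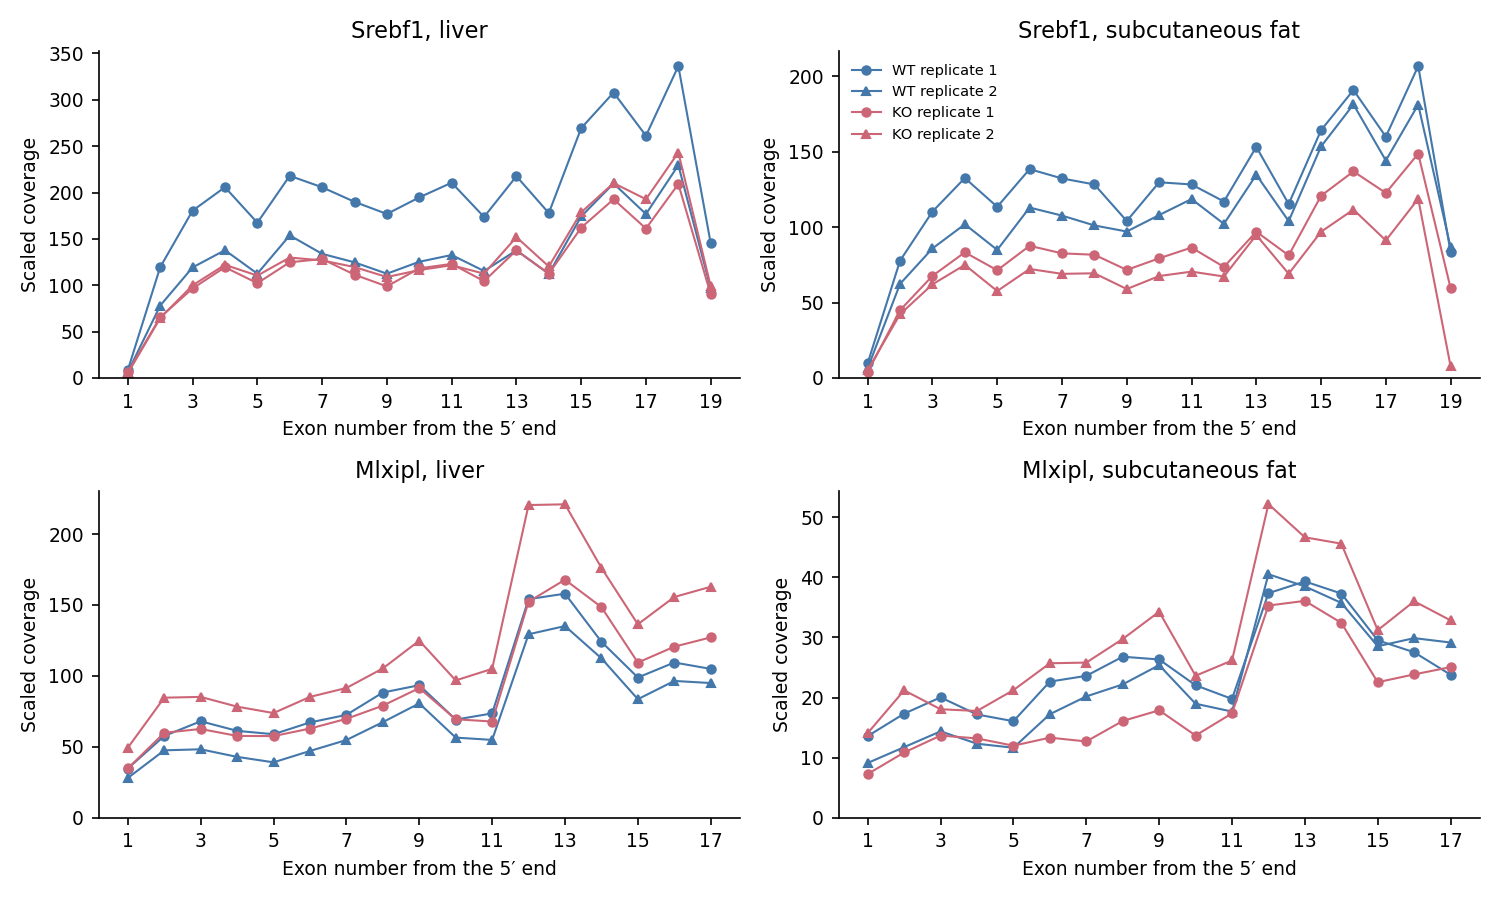
Scaled coverage of each exon of Srebf1 and Mlxipl, numbered from the 5′ end, with 1 line per library. The first Srebf1 exon lies near the axis in every library, and the last Srebf1 exon of KO fat replicate 2 falls to 7.68, against 59.5 to 86.6 in the other fat libraries.

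In the liver, 4 of the 8 enzyme genes and neither of the transcription factor genes differed between KO and WT mice by adjusted p. Acly, Acaca and Fasn, which lead from citrate to palmitate, and Me1, which supplies NADPH, fell. Median changes were -1.05 on the log2(FPKM + 1) scale for the 8 enzyme genes, counting Thrsp among them, against -0.17 over the 10822 genes tested. The regulators lay on opposite sides of 0, Srebf1 at -0.38 and Mlxipl at 0.42. By adjusted p, 4 of 10 members were lower and 0 higher, whereas 16.9% of all genes tested were lower and 2.51% higher. By a looser rule, an unadjusted p of 0.05 with a log2 change of 0.58, 6 of 10 were lower and 0 higher, against 13.4% and 2.25% of all genes. When all 8 libraries shared one estimate of spread, 0 members were called in liver (limma adjusted p = 0.0621 for Acaca, the lowest of the 4). Without KO replicate 2, 2 members, Fasn and Me1, were called, and Acly and Acaca had adjusted p of 0.0743 and 0.0738. Positions below are in mm10, with the Entrez number the files use.

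Slc25a1 (Entrez 13358, chr16:17925211-17928219), the mitochondrial citrate carrier that exports the carbon, was 172 and 171 FPKM in WT liver and 154 and 125 in KO liver. Both KO values were below both WT values, but the change of -0.30 (SE 0.12) did not pass limma's adjusted p (0.135). Acly (Entrez 104112, chr11:100476352-100528000), ATP citrate lyase, was 95.0 and 79.3 FPKM in WT liver and 39.98 and 32.2 in KO liver. The groups were well apart, and Acly fell by 1.25 (SE 0.15) on the log2 scale, to 0.414 of the WT mean (limma adjusted p = 0.0157). Acss2 (Entrez 60525, chr2:155518043-155562743), which makes acetyl-CoA from acetate, was 48.1 and 48.4 FPKM in WT liver and 49.0 and 29.6 in KO liver. The groups overlapped, with 1 KO library at the WT level (limma adjusted p = 0.351).

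Me1 (Entrez 17436, chr9:86581363-86695914), cytosolic malic enzyme, was 86.4 and 94.4 FPKM in WT liver and 32.4 and 14.3 in KO liver. The KO libraries differed from each other by more than 2-fold, yet both lay below the lower WT library, and Me1 fell by 2.02 (SE 0.37, limma adjusted p = 0.0301). The call depended on the filter and scaling: adjusted p was 0.0550 with no filter and 0.0503 with quantile normalization. It also depended on single libraries, with adjusted p of 0.0896 without WT replicate 1 and 0.0837 without WT replicate 2.

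Acaca and Acacb encode the acetyl-CoA carboxylases, ACC1 in the cytosol and ACC2 at the mitochondrial surface, where malonyl-CoA limits fatty acid import. Acaca (Entrez 107476, chr11:84195438-84401651) was 21.7 and 19.0 FPKM in WT liver and 9.35 and 9.34 in KO liver, a fall of 1.04 (SE 0.10, limma adjusted p = 0.0117). The KO livers were nearly identical, at 0.459 of the WT mean. Acacb (Entrez 100705, chr5:114165518-114250758) was 20.6 and 16.7 FPKM in WT liver and 11.96 and 5.83 in KO liver. Its change, -1.05 (SE 0.32), was as large as that of Acaca, but the wider spread left it at limma adjusted p = 0.0801. The change of Acacb depended on the KO library, at -1.52 without KO replicate 1 and -0.59 without KO replicate 2.

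Fasn (Entrez 14104, chr11:120805958-120824547), fatty acid synthase, was 153 and 146 FPKM in WT liver and 43.6 and 32.6 in KO liver. It fell by 1.96 (SE 0.15), to 0.255 of the WT mean (limma adjusted p = 0.00976), and was called with each liver library left out in turn, at adjusted p of 0.0141 to 0.0370. Thrsp (Entrez 21835, chr7:97412933-97417550) was 522 and 346 FPKM in WT liver and 255 and 198 in KO liver, a change of -0.91 (SE 0.24, limma adjusted p = 0.0578). Both KO livers were below both WT livers, and Thrsp passed adjustment with TPM in place of FPKM (0.0419) and without WT replicate 2 (0.0363). Without WT replicate 1 the change was -0.62 (limma adjusted p = 0.118), and without KO replicate 2 the adjusted p was 0.220.

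Srebf1 (Entrez 20787, chr11:60199084-60220627) was 179 and 119 FPKM in WT liver and 108 and 116 in KO liver. The second WT library was almost at the KO level, and the change was -0.38 (SE 0.21, limma adjusted p = 0.237). Without that WT library, replicate 2, the change was -0.68 and passed (limma adjusted p = 0.0356), and without WT replicate 1 it was -0.084 (limma adjusted p = 0.601). Mlxipl (Entrez 58805, chr5:135106891-135138382) was 91.4 and 77.8 FPKM in WT liver and 98.7 and 130.3 in KO liver. Both KO values were above both WT values, an order that 11.8% of all genes tested had, and the change of 0.42 (SE 0.17) was not called (limma adjusted p = 0.130). Of the members, 8 of 10 had both KO livers below both WT livers, which also held for 57.5% of all genes.

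**Figure D2:**
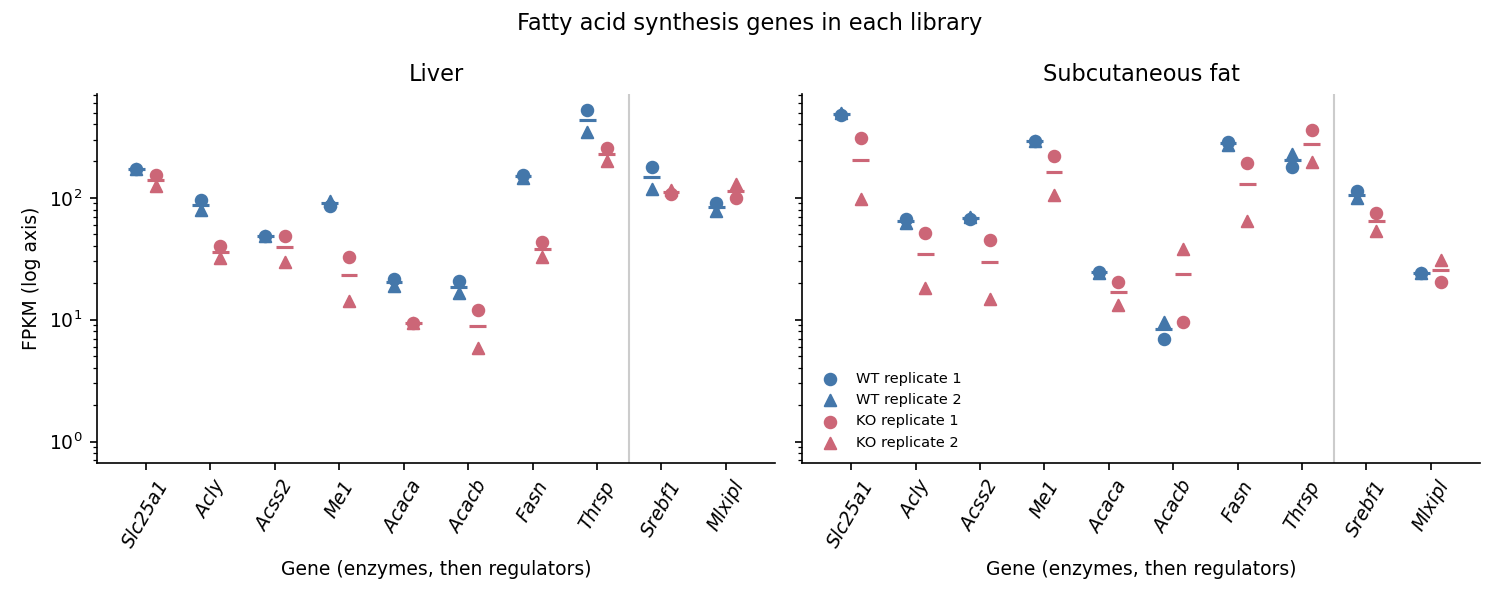
FPKM of the 10 members in each library on a log axis, for liver and subcutaneous fat, with WT in blue, KO in red and a bar at each group mean. In liver Fasn, Me1, Acly and Acaca separate clearly by genotype, and in fat the KO libraries lie apart from each other.

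The enzymes were next set against their regulators within each library, as the mean log2(FPKM + 1) of the 8 enzyme genes minus that of Srebf1 and Mlxipl. This value was -0.60 and -0.34 in WT liver and -1.22 and -1.98 in KO liver, so the KO livers carried less enzyme mRNA for their regulator mRNA. The difference of means was -1.13, of which -1.11 was in the enzymes. The FPKM ratio of Fasn to Srebf1 was 0.853 and 1.23 in WT liver and 0.403 and 0.282 in KO liver. The ratio of Fasn to Mlxipl was 1.67 and 1.88 against 0.441 and 0.250. In both ratios the groups did not overlap, and with 2 libraries a group an exact permutation test of a single value cannot go below p = 0.333. The 8 enzyme genes, counting Thrsp and the carrier Slc25a1, made up 0.207% and 0.165% of the summed FPKM in WT liver and 0.104% and 0.0780% in KO liver. Much of this was Thrsp, with 522 and 346 FPKM of 1119 and 920 in WT liver. In KO liver Thrsp was 255 and 198 FPKM of 595 and 448.

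**Figure D3:**
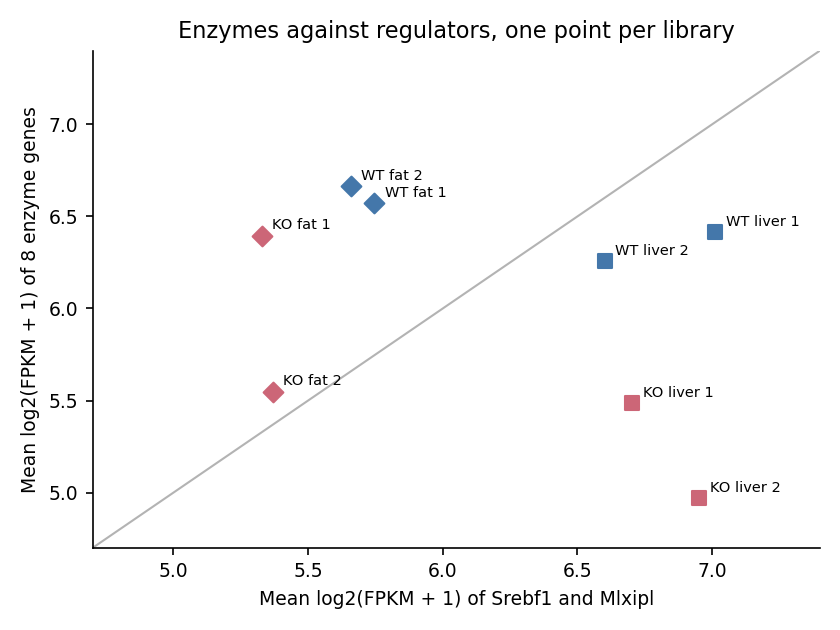
Mean log2(FPKM + 1) of the 8 enzyme genes against that of Srebf1 and Mlxipl, with 1 point per library and a line of equality. The KO livers lie lowest relative to the line, at -1.22 and -1.98, and KO fat replicate 2 lies at 0.18, below the other fat libraries at 0.83 to 1.07.

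Markers of other cells moved with genotype in liver too. All 7 macrophage markers and all 5 endothelial markers were lower in both KO livers than in both WT livers, an order that 57.5% of all genes tested had. The macrophage markers summed to 360 and 283 FPKM in the WT livers against 126 and 127 FPKM in the KO livers. The hepatocyte markers did not move together, with 3 of 10 lower and 5 of 10 higher in both KO livers. Of all genes tested, 11.8% were higher in both KO livers. Of the 10 genes listed as adipocyte markers, 4 were lower and 1 was higher in both KO livers than in both WT livers. One of the 10, Cidec, is also induced by lipid storage in liver and was chosen after its values were seen. Cidec was 97.1 and 86.5 FPKM in WT liver and 14.3 and 2.7 in KO liver. The part of these markers in the result was not tested, and in bulk tissue fewer cells of a type cannot be told from less RNA per cell. Scaling also mattered for the background: with median-of-ratios scaling the median change over all genes moved from -0.17 to -0.02, and the same 4 members were called lower.

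In fat, no member was called by adjusted p, and 0.0% of the 12164 genes tested were called (785 genes and 0 members had an unadjusted limma p under 0.05). All members were given adjusted p values of 0.68 or more. By the looser rule 0 members passed, against 5.36% of all genes lower and 0.707% higher. The changes of the enzymes ranged from -1.48 for Slc25a1 to 1.13 for Acacb, with standard errors of 0.28 to 0.66. The KO libraries were farther apart than the WT libraries: the SD of Slc25a1, for example, was 12.9 FPKM in WT fat and 149 FPKM in KO fat.

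Slc25a1 was 476 and 495 FPKM in WT fat and 308 and 97.0 in KO fat. Acly was 66.7 and 62.6 FPKM in WT fat and 51.0 and 18.2 in KO fat. Acss2 was 66.8 and 69.9 FPKM in WT fat and 44.8 and 14.8 in KO fat. In all 3 genes of acetyl-CoA supply both KO libraries were below both WT libraries, and KO replicate 2 was by far the lower.

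Me1 was 289 and 294 FPKM in WT fat and 221 and 105 in KO fat. Fasn was 287 and 271 FPKM in WT fat and 192 and 65.0 in KO fat. Acaca was 24.8 and 24.3 FPKM in WT fat and 20.3 and 13.3 in KO fat. In these enzymes too KO replicate 2 was lowest, and 7 of 10 members had both KO values below both WT values, against 36.1% of all genes. None of the 10 had both KO values above both WT values, an order found in 9.03% of all genes.

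Acacb and Thrsp did not follow. Acacb was 6.97 and 9.64 FPKM in WT fat and 9.48 and 38.0 in KO fat, so only the library with muscle markers was high. ACC2 is the carboxylase of muscle and heart. Most brown fat and hepatocyte markers were also above both WT libraries in KO replicate 2. The part of the muscle markers, or of these other markers, in the Acacb value was not tested. Thrsp was 178 and 229 FPKM in WT fat and 356 and 196 in KO fat, where KO replicate 1 was the high library.

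Srebf1 was 113 and 99.7 FPKM in WT fat and 75.3 and 53.0 in KO fat, with both KO libraries lower, and a change of -0.74 (SE 0.30, limma adjusted p = 0.680). The 53.0 FPKM of KO replicate 2 includes a last exon of 1068 bases with a coverage of 7.68, against 59.5 in KO replicate 1. On the shared second exon, coverage was 77.8 and 62.4 in WT fat and 44.9 and 42.3 in KO fat. Mlxipl was 24.4 and 24.3 FPKM in WT fat and 20.2 and 30.6 in KO fat, on both sides of the WT level (change 0.03, SE 0.28).

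In KO fat replicate 1, where 1 of 16 muscle markers was above both WT libraries and their sum was 43.1 FPKM against 58.6 and 325 in WT, the changes from the WT mean were -0.65 for Slc25a1, -0.60 for Acss2, -0.53 for Fasn, -0.49 for Srebf1, -0.40 for Me1, -0.33 for Acly and -0.26 for Acaca. In KO fat replicate 2, not rescaled for its muscle markers or corrected for its low last Srebf1 exon, they were -2.31, -2.13, -2.08, -0.98, -1.46, -1.77 and -0.84 in the same order. These are the 7 members for which both KO values were below both WT values, so their shared direction follows from that choice. The other 3 members were at 0.19 and 2.08 for Acacb, 0.81 and -0.04 for Thrsp, and -0.26 and 0.32 for Mlxipl in KO replicates 1 and 2. In KO fat replicate 1, adipocyte markers had a median change of 0.14, with 7 of 10 above both WT libraries, while endothelial markers had a median of -0.92, with 5 of 5 below. The share of all genes above or below both WT libraries was not computed for this library alone. Without KO replicate 1, which leaves 1 KO library assumed to vary as the WT libraries do, 8 of the 10 members were called in fat (7 lower and Acacb higher), as were 6302 genes in all. Without KO replicate 2, 0 members were called.

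**Figure D4:**
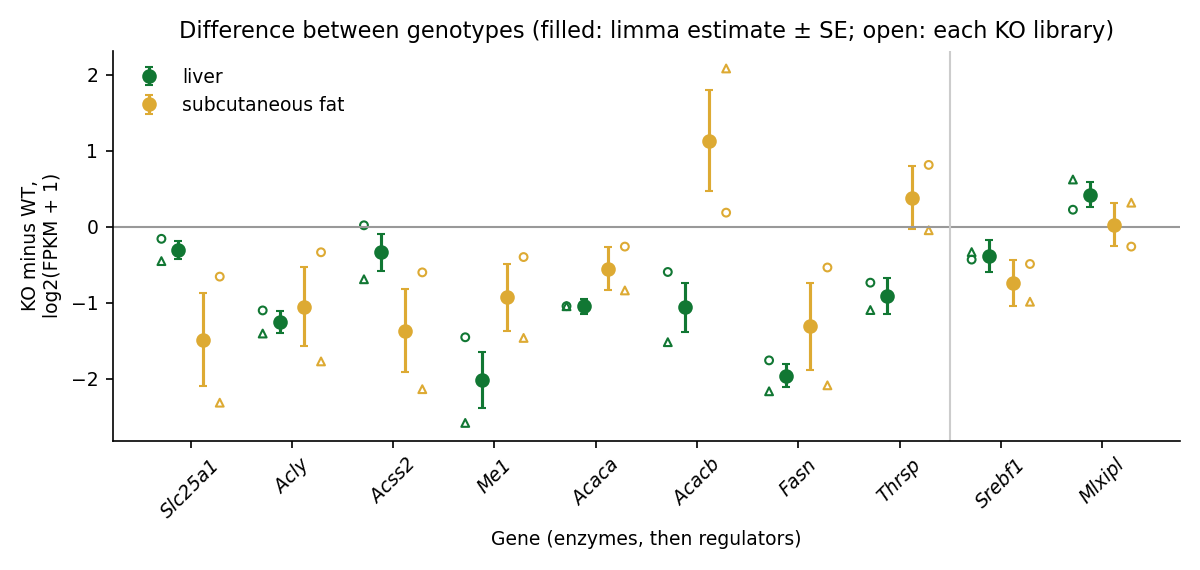
KO minus WT on the log2(FPKM + 1) scale for each member, with filled points for the limma estimate, bars for ± 1 SE, and open circles and triangles for KO replicates 1 and 2. The bars in fat are wider than in liver, and Acacb and Thrsp lie on opposite sides of 0 in the 2 tissues.

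Enzymes minus regulators was 0.827 and 1.004 in WT fat and 1.07 and 0.18 in KO fat, so replicate 2 alone was below the WT values. The difference of means, -0.29, became 0.15 without replicate 2 and -0.44 with Thrsp, which was high in replicate 1, left out of the enzymes. The ratio of Fasn to Srebf1 was 2.55 and 2.72 in WT fat, 2.56 in KO replicate 1 and 1.23 in KO replicate 2. In KO replicate 2 the Srebf1 value includes its low last exon, in this ratio and in the regulator mean. The ratio of Fasn to Mlxipl was 11.8 and 11.2 in WT fat and 9.53 and 2.12 in KO fat, with both KO libraries below both WT libraries.

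Single transcripts of Srebf1 differ by 15 bases at the start of 1 exon and share the rest. In liver NM_011480 held 87.6% and 88.6% of Srebf1 FPKM in WT and 86.8% and 86.5% in KO. In fat it held 90.7% and 90.3% in WT, 87.0% in KO replicate 1 and 55.9% in KO replicate 2. That last library also had 7.68 in its final Srebf1 exon (chr11:60199084-60200151) against 69.4 as the median of its inner exons, or 11.1%, where the other 7 libraries had 64.3% to 81.2%. None of the 3 transcripts of Srebf1 and Mlxipl was called in liver, where 2.54% of transcripts tested were lower and 0.552% higher, or in fat, where 0.0% were called, and 0 of the 3 had an unadjusted limma p under 0.05 in either tissue. In fat NM_001313979 was 10.5 and 9.70 FPKM in WT and 9.79 and 23.4 in KO.

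The KO change was then compared between the tissues, which asks whether the same genes moved alike in liver and fat. No member was called, nor was any of the 9917 genes tested in both (0.0%, with 766 genes and 2 members at an unadjusted limma p under 0.05). The largest differences, liver change minus fat change, were -2.19 for Acacb (SE 0.86, limma adjusted p = 0.616), -1.30 for Thrsp (SE 0.50, limma adjusted p = 0.611), 1.18 for Slc25a1 (SE 0.68, limma adjusted p = 0.763), -1.09 for Me1 (SE 0.63, limma adjusted p = 0.763) and 1.03 for Acss2 (SE 0.68, limma adjusted p = 0.778). For Fasn the difference was -0.65 (SE 0.65, limma adjusted p = 0.864), and it became -1.42 and was called without KO fat replicate 2 (limma adjusted p = 0.0348) and 0.12 without KO fat replicate 1.

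Between the WT tissues, 4 members differed by adjusted p. In WT liver the highest member was Thrsp, at a mean of 434 FPKM, followed by Slc25a1 at 172, Fasn at 149.6 and Srebf1 at 149.04. Me1 at 90.4, Acly at 87.1 and Mlxipl at 84.6 followed, then Acss2 at 48.3, and the lowest were Acaca at 20.4 and Acacb at 18.7. In WT fat Slc25a1 was highest at 486 FPKM, followed by Me1 at 292 and Fasn at 279. Thrsp was at 204, Srebf1 at 106, Acss2 at 68.4, Acly at 64.6, Acaca at 24.5 and Mlxipl at 24.4, and Acacb was lowest at 8.31. In liver the range of Srebf1 overlapped those of Slc25a1 and Fasn. The ranges of Acaca and Acacb also overlapped there, as did those of Me1, Acly and Mlxipl. In fat the ranges of Acaca and Mlxipl overlapped, and those of Me1 and Fasn did not.

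This comparison was fitted on all 8 libraries, so its standard errors include the spread of the KO libraries, and tissues of a mouse were not paired. Slc25a1 and Me1 were lower in liver than in fat by log2 differences of -1.50 (SE 0.48, limma adjusted p = 0.0340) and -1.68 (SE 0.45, limma adjusted p = 0.0170). Thrsp and Mlxipl were higher in liver by 1.07 (SE 0.35, limma adjusted p = 0.0360) and 1.75 (SE 0.24, limma adjusted p = 0.00139). With any 1 WT library left out only Mlxipl passed, and with TPM the call for Thrsp was lost (limma adjusted p = 0.0674). Of all genes 49.1% were lower and 11.2% higher in liver, with a median of -0.52 that became -0.03 with median-of-ratios scaling. Under that scaling Slc25a1 and Me1 kept their sign, at -0.93 and -1.11, without passing (limma adjusted p = 0.108 and 0.0632), and Srebf1 was called higher in liver, at 1.02 (limma adjusted p = 0.00865). Acacb, at 1.09, and Fasn, at -0.90, were not called. Their WT ranges did not overlap between the tissues, and neither did those of the other uncalled members, Acly, Acss2, Acaca and Srebf1. The share of all genes with such an order was not computed. Fasn was 146 to 153 FPKM in WT liver and 271 to 287 in WT fat, and Acacb was 16.7 to 20.6 and 6.97 to 9.64.

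The ratio of Acaca to Acacb was lower in both WT livers than in both WT fat libraries. It was 1.05 and 1.14 in WT liver, 0.782 and 1.60 in KO liver, 3.55 and 2.52 in WT fat, and 2.14 and 0.349 in KO fat. The WT livers were thus near equal in both carboxylase mRNAs, and the KO libraries varied more than the WT libraries in each tissue.

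Other genes of the pathway were counted in 7 lists of 62 genes, of which 57 could be tested in liver. By adjusted p 16 of 57 were lower and 0 higher in KO liver, with a median change of -0.21, beside 16.9% of all genes lower. In the NADPH list 5 of 8 tested were lower. Pgd, the second dehydrogenase of the pentose phosphate pathway, was 35.5 and 37.7 FPKM in WT liver and 16.5 and 10.8 in KO liver, a fall of 1.39 (limma adjusted p = 0.020). Tkt, transketolase, fell by 1.05, G6pdx, the first enzyme of that pathway, by 0.74, and Taldo1, transaldolase, by 0.65. G6pdx was low, at 2.92 and 2.39 FPKM in WT liver and 1.31 and 1.05 in KO liver.

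In the acetyl-CoA and malonyl-CoA supply list 4 of 8 were lower: Cs, citrate synthase, by 0.80, the dicarboxylate carrier Slc25a10 by 0.66, pyruvate carboxylase Pcx by 0.57 and malate dehydrogenase Mdh2 by 0.44. Among 4 genes of enzyme activation, Hlcs, which attaches biotin to the carboxylases, fell by 1.03, from 5.79 and 4.44 FPKM in WT liver to 1.94 and 2.01 in KO liver. Among 11 sugar-responsive ChREBP targets 4 were lower and 0 higher. Tkfc fell by 0.78, pyruvate kinase Pklr by 0.75 and fructokinase Khk by 0.36. Gpd1, at -0.76, passed the looser rule but not adjustment (limma adjusted p = 0.098).

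Of 6 SREBP processing genes 0 were called by limma, with 0 at an unadjusted p under 0.05. Of 13 partner transcription factors 0 were called and 3 had such a p, with Srebf2 at -0.59 past the looser rule (limma adjusted p = 0.090). Mitochondrial fatty acid synthesis, a separate pathway that makes lipoate precursors, had 2 of 7 lower, Acsf3 by 0.52 and Mecr by 0.45. Median-of-ratios scaling left 6 pathway calls, of which 5 were lower and 5 were among the 16. In fat 0 of 55 pathway genes were called by limma, and 1 had an unadjusted p under 0.05. That gene, Insig1, which retains SREBPs in the endoplasmic reticulum and is itself an SREBP target, was 239 and 199.8 FPKM in WT fat and 105 and 40.2 in KO fat (change -1.73, limma adjusted p = 0.680).

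**Figure D5:**
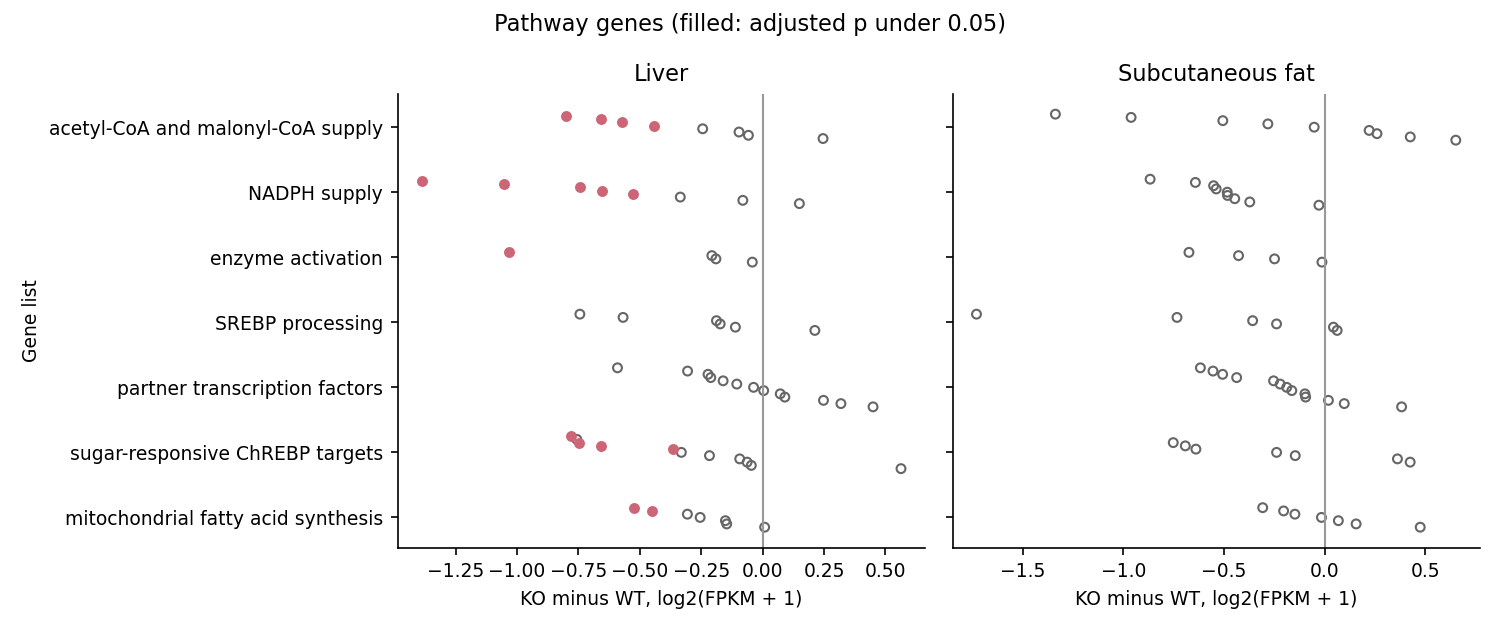
KO minus WT on the log2(FPKM + 1) scale for the tested genes of 7 pathway lists in liver and fat, 1 point per gene, filled where the adjusted p was under 0.05. The 16 filled points all lie left of 0 in liver, 5 of them in the NADPH list, and there are none in fat.

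The promoters were searched, on both strands, for the sterol regulatory element TCACNCCAC, the E-box CACGTG bound by USF proteins, and the CCAAT box, CCAAT, bound by NF-Y. RefSeq gave 14 windows for the 10 members, each from 250 bases before to 50 after a start. The sterol regulatory element letters were in 1 of the 14, that of Mlxipl, and in 1.24% of 32851 windows. The E-box was in 2 of 14, Slc25a1 and the upstream start of Mlxipl, and in 7.15% of all windows. CCAAT was in 10 of 14 and 37.4% of all. The 250 bases before the starts of Fasn, the member with the lowest adjusted p in liver, and of Mlxipl, whose estimate alone was above 0 there, are shown (GRCm38.p6), with the CCAAT box in capitals for Fasn and the sterol regulatory element for Mlxipl. Fasn lies at chr11:120824548-120824797 on the minus strand and Mlxipl at chr5:135106641-135106890 on the plus strand.
Fasn: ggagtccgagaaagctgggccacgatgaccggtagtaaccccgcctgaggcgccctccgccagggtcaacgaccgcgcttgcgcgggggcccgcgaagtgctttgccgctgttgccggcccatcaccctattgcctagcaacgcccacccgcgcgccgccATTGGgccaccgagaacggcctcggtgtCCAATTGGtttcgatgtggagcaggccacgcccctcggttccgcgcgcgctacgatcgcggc
Mlxipl: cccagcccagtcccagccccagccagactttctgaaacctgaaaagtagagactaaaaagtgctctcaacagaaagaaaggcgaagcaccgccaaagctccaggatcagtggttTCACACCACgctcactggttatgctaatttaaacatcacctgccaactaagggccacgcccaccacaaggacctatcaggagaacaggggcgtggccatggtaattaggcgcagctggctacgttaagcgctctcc
The Fasn window held 3 matches, at 90, 62 and 59 bases before the start, the last 2 overlapping on opposite strands. The Mlxipl match lay 136 bases before its start. The letters in a window are a description and were not tied to binding in these samples.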

How the data were processed

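The deposited files are StringTie 1.3.3b transcript tables, made by the authors with HISAT2, SAMtools and the mm10 RefSeq annotation and read here for their FPKM (fragments scaled to transcript length and library size), TPM and coverage values. A gene's value is the sum of the FPKM of its transcripts. No read counts were used, so no count test was run. Each tissue was fitted with limma 3.58.1 (trend) on log2(FPKM + 1), keeping genes at 1 FPKM or more in at least 2 of 4 libraries, with Benjamini-Hochberg adjustment over all genes kept and a threshold of 0.05. Comparisons between tissues were fitted on all 8 libraries, with a mean for each genotype and tissue and genes kept in both tissues. Libraries of the same mouse were not paired in them, except with the replicate block. A fold change on this scale understates the change of low genes. A looser rule, an unadjusted p of 0.05 with a log2 change of 0.58, was applied to the same fit. It is not the study's own test, which combined p-values of other tests. The fits were tested on simulated data of 10822 genes in liver and 12164 in fat, with normal noise. Each gene's spread was averaged over WT and KO libraries, and its noise was independent of other genes. In fat the real KO libraries were farther apart than the WT libraries, and a shift of a whole library was not simulated. The recoveries below therefore hold for the simulated setting only. Only a sample of genes, none of them low, was changed, so recovery of low genes was not tested. Of genes changed by 1 on the log2 scale, 95% were recovered in liver and 3% in fat. For a change of 2 the recovery was 100% and 75%. The members and gene lists were chosen with earlier results of these data known. The genes named are all members and, per pathway list, up to 4 genes past either threshold, largest change first; 1 gene that this rule names is not reported here. The list genes Hsd17b8 and Tf were matched by synonym. Library names carry 1 animal code in both tissues, which pairs liver with fat of a mouse but not WT with KO. Deviations of same-numbered libraries correlated over genes at 0.080 in WT and 0.092 in KO between tissues. Coverage per FPKM put the aligned bases at 5.72 to 9.24 Gb per library. The labels give each replicate a number and name no litter or batch, and p-values measure only the spread between these libraries. With 2 libraries a group, an exact permutation test of 1 value cannot go below p = 0.333. Promoters and transcript sequences came from RefSeq (GRCm38.p6) and GENCODE M21, of the files' build.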

Additional observations from a re-analysis of the deposited data

Results flagged for a closer look

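Acacb and Thrsp differed between tissues in their KO minus WT change at an unadjusted p of 0.05, the mark used here for a closer look, and neither passed adjustment over 9917 genes. The liver change minus the fat change of Acacb was -2.19 on the log2(FPKM + 1) scale (limma adjusted p = 0.616): both KO livers were below both WT livers, and KO fat replicate 2 stood far above the other fat libraries. Leaving out KO fat replicate 1 gave -3.14 and leaving out KO fat replicate 2 gave -1.24. For Thrsp the difference was -1.30 (limma adjusted p = 0.611), with leave-one-out values of -1.73 to -0.87. Of 9917 genes, 766 passed the same unadjusted mark.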

How the results depend on the processing

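Members called in liver numbered 4, and 0 when all 8 libraries shared one estimate of spread. Leaving out a library leaves 1 in its group, assumed to vary like the rest. In liver this gave 2 to 5, the lowest without KO replicate 2. In fat, 0 members were called, and leave-one-out gave 0 to 8, the highest without KO replicate 1, where 6302 genes were called in all. Between-tissue differences in the KO change were called for 0 members and for 0 to 3 under leave-one-out: Acacb, Acss2 and Slc25a1 without KO fat replicate 1, and Acaca and Fasn without KO fat replicate 2. Of the 4 members called between WT tissues, Mlxipl alone passed with any WT library left out, giving 1 to 1.

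Pathway genes called in liver fell from 16 to 10 with no filter, 6 with median-of-ratios scaling, 4 with quantile normalization, 0 with all 8 libraries in one fit, and 0 to 7 under leave-one-out. In fat they numbered 0, with 0 to 32 under leave-one-out. Calls for Srebf1 and Mlxipl transcripts in fat ranged from 0 to 2. Over all genes in liver, calls numbered 2106, of which 87.1% were lower. Median-of-ratios scaling gave 1262 calls with 67.9% lower, quantile normalization gave 1040 with 61.3% lower, and all 8 libraries in one fit gave 227.

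With the replicate block, members called were 6 in liver (Acacb and Thrsp added), 0 in fat, 0 for the difference between tissues and 4 between WT tissues. Pathway genes were 9 in liver and 1 in fat. Within a tissue the libraries share only a number: their deviations correlated at 0.0067 in liver and 0.11 in fat.

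Signs turned for these values not called: Acss2 in liver (leave-one-out -0.69 to 0.020), Thrsp in fat (-0.044 to 0.81), and Mlxipl in fat (-0.071 with TPM, and -0.26 to 0.32). The liver change minus the fat change turned for Acly (-0.92 to 0.52) and Fasn (-1.42 to 0.12). WT liver minus WT fat turned for Acss2 (0.069 with median-of-ratios scaling) and Acaca (0.29, and 0.25 with quantile normalization). The KO minus WT change in enzymes minus regulators ranged from -1.51 to -0.75 in liver and from -0.74 to 0.15 in fat. The latter leave-one-out values were added after the data were seen. The cause of these shifts was not tested.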

Other observations

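Acly has 2 annotated transcripts, NM_134037 and NM_001199296. The less abundant, NM_001199296, held 34.2% and 31.8% of the gene's FPKM in WT liver, 38.3% and 29.1% in KO liver, 37.2% and 37.3% in WT fat, and 38.2% and 35.7% in KO fat. In KO liver NM_134037 fell by 1.26 on the log2(FPKM + 1) scale (limma adjusted p = 0.037), and NM_001199296 had a change of -1.19 that was not called (limma adjusted p = 0.090). Nearly all Me1 signal was on NM_008615, and NM_001198933 was listed at 0 in 6 of 8 libraries.

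Profiles were compared as log2(FPKM + 1) minus the WT mean of the tissue, over 8 libraries and among 5317 genes that moved by at least 0.5 in a library. The 5 genes nearest to Srebf1 were Arhgef40, Snrk, Ppp1r14a, Elf1 and Ski, with mean absolute differences of 0.067 to 0.083. The 5 nearest to Mlxipl were Map2k6, Nfix, Mafg, Map2k3 and Lenep, at 0.092 to 0.12. No fatty acid synthesis enzyme was among the 10, which is likely for any few genes with 10 places among 5317. The measure also favours genes with changes as small as those of the regulator, at most 0.98 for Srebf1 and 0.62 for Mlxipl. It therefore does not show whether the enzymes follow their regulators.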
